A study of Mus musculus with 4 samples.

Results

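Bmp4, Igf1, Dkk3, Fstl1 and Nrep were followed clone by clone in heart ventricles of mice given a mineralocorticoid with or without salty drinking water. The 5 genes were taken as all clones whose only gene symbol is one of these names, which gave 11 clones of 12480 named clones with a value, and 5 of 8106 genes. Bmp4, Igf1, Dkk3 and Fstl1 had 2, 4, 2 and 2 clones and Nrep had 1. The genes were chosen by their log ratios in this same comparison, so their values are a description and no test is given for them.

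All 6 mice were male wild types of a 129Ola/C57BL/6J backcross (N5–6) labelled 1-renin, were 7 to 8 weeks old at the start and 12 to 13 weeks old at tissue collection, and had 1 kidney removed. Each was given deoxycorticosterone acetate (DOCA), a mineralocorticoid, for 5 weeks, on a diet of 0.5 mg Na per g food. Drinking water was 1% NaCl for the 3 mice of the high-salt group and plain tap water for the other 3, so the contrast is salt on top of DOCA and not DOCA itself. Right and left ventricles with the septum were used, and heart weights in the 3 animal pairs were 131 against 109 mg, 128 against 107 mg and 120 against 108 mg, high salt first. Each printed cDNA array took 1 high-salt and 1 low-salt heart in 2 dyes. Array 1 held pair 1 and array 2 held pair 2 with Cy3 on high salt, array 3 held pair 3 with Cy5 on high salt, and array 4 held pair 2 again with the dyes exchanged. Because arrays 2 and 4 hold the same mice, their mean served as 1 value, which leaves n = 3 pairs. An array has no read depth, and the small number of arrays limits the precision.

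Values are the deposited log ratios, read as high over low salt with base 2 assumed. The array titles word the comparison that way whichever dye was on high salt, so the direction is not settled. Across the 12480 named clones, which are not independent replicates, arrays 1 and 2 correlated at r = 0.58 and arrays 3 and 4 at r = 0.46, while arrays of opposite dye orientation correlated between -0.38 and -0.095. If the authors had not turned the swapped arrays, those of 1 dye orientation would need the opposite sign. These would be arrays 1 and 2 if the ratio is Cy5 over Cy3, which is assumed here, and arrays 3 and 4 otherwise. Means, medians, ranks and dye-swap gaps are therefore also given with arrays 1 and 2 turned. Turning arrays 3 and 4 instead would reverse each turned sign and rank and leave the gaps unchanged. Statements by clone or gene refer to the deposited reading unless marked as turned. In bulk ventricle, more cells of a type and more RNA per cell cannot be told apart. Log ratios carry no expression level, so the labelled tissue could not be checked against its markers. Of 15 cardiomyocyte markers looked for, 3 had a clone with only 1 symbol and a value.

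The 5 genes take part in growth and scarring of the heart in different ways. Bmp4 is a secreted ligand of the bone morphogenetic protein (BMP) family that binds serine/threonine kinase receptors and acts through SMAD transcription factors. Igf1 is a secreted ligand of the insulin-like growth factor receptor, a tyrosine kinase that promotes cardiomyocyte growth and survival through the kinases PI3K and AKT. Dkk3 is a secreted glycoprotein of the Dickkopf family, whose better known members block WNT co-receptors. Fstl1 is a secreted glycoprotein related to follistatin and SPARC that heart muscle, fibroblasts and epicardium can release. Nrep is a small intracellular protein linked to myofibroblasts and to production of transforming growth factor beta (TGF-beta), so "secreted" does not describe it.

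Promoter sequences are shown because these genes stood on the same side of 0 on each array as deposited, and 3 of the 5 members, Bmp4, Igf1 and Fstl1, had a window in the RefSeq promoter table (build GRCm38.p6). Each window is the 250 bases before the listed start, 5′ to 3′ along the gene, with each GC box (GGGCGG, either strand) in capitals. They lie at chr14:46390670-46390919 on the minus strand for Bmp4, chr10:87860861-87861110 on the plus strand for Igf1 and chr16:37776805-37777054 on the plus strand for Fstl1.
Bmp4: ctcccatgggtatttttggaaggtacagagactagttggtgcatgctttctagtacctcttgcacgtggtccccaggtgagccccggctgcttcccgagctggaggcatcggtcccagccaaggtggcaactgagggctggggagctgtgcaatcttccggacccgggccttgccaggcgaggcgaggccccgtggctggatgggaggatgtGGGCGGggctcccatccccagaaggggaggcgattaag
Igf1: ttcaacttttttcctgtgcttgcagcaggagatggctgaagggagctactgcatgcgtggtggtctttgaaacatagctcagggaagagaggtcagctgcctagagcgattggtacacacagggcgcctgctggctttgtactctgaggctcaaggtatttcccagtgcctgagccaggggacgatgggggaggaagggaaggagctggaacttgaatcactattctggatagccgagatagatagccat
Fstl1: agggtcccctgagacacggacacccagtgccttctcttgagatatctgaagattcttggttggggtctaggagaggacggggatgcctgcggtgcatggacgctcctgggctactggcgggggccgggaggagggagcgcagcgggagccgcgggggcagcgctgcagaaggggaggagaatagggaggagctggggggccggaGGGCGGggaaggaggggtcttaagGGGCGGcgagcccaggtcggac

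The windows differed in composition. G and C made up 63.2% of the Bmp4 window and 68.0% of the Fstl1 window, against 52.8% for Igf1 and a median of 52.4% over 32851 windows of the same length. Bmp4 held 1 GC box and Fstl1 held 2, while 32.7% of all windows hold at least 1. Igf1 held 1 AP-1 element (TGANTCA, found in 6.75% of windows), starting 37 bases before the start site. Bmp4 held 3 E-boxes (CANNTG, found in 66.2% of windows) and Igf1 held 1. None of these 3 windows held the SMAD-binding letters CAGAC (in 42.2% of windows) or TATAAA (in 12.4%). Both strands were searched for each motif, and no position was shared between 2 motifs searched. These matches describe letters in a window, not sites in use.

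As deposited, the gene means of all 5 members lay above 0 on each of the 4 arrays. Of all 8106 genes 7.01% did so and 7.75% lay below 0 on all 4, and nothing is read from this, since the members were chosen from these values. At the level of clones 6 of the 11 stayed above 0 on all 4 arrays, against 6.99% of all named clones, and 0 stayed below. Of the 44 member values 38 were above 0 and 6 below. They ran from -0.16 for Igf1 feature 15445 to 1.18 for Fstl1 feature 7143, both on array 2.

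**Figure D1:**
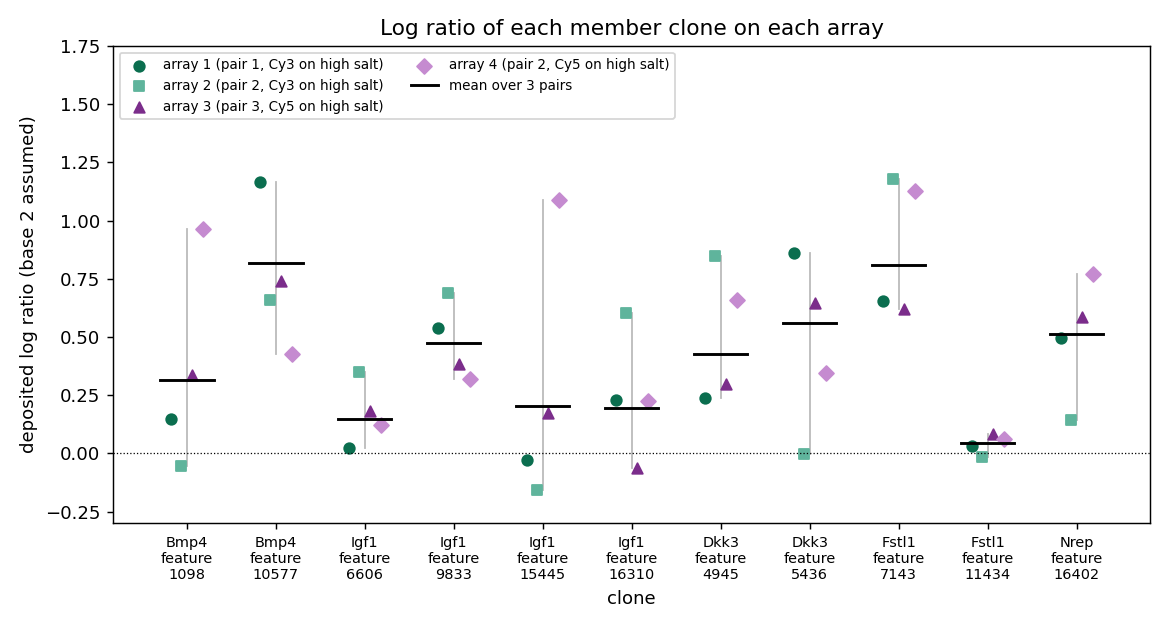
Deposited log ratio (vertical axis, base 2 assumed) of each of the 11 clones (horizontal axis) on arrays 1 to 4, with the range as a grey line and the mean over 3 pairs as a black bar. All 11 means lie above 0, from 0.046 for the flat Fstl1 clone to 0.82 for a Bmp4 clone, and 2 clones stand near 1 on array 4 alone.

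Bmp4, the BMP ligand, had the highest mean of the 5 genes. Its gene log ratio was 0.66, 0.30, 0.54 and 0.70 on arrays 1 to 4, with a mean over pairs of 0.56 ± 0.081 (SD, n = 3), or 1.48-fold with base 2. Every array was above 0, and pairs 1 to 3 stood at 0.66, 0.50 and 0.54. Its 2 clones were less even than their mean. Feature 10577 read 1.16, 0.66, 0.74 and 0.43, with a mean of 0.82 ± 0.32. Feature 1098 read 0.15, -0.05, 0.34 and 0.96, with a mean of 0.31 ± 0.16. The first clone was highest on array 1 and lowest on array 4, whereas the second was highest on array 4. The gap between the 2 clone means, 0.50, was wider than in 95.8% of the 2851 genes with 2 or more clones. It was 0.41 with arrays 1 and 2 turned, wider than in 77.2%.

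Igf1, the growth factor ligand, had the lowest mean of the 5 genes. Its gene log ratio was 0.19, 0.37, 0.17 and 0.44 on arrays 1 to 4, with a mean of 0.26 ± 0.13 (SD, n = 3 pairs), or 1.19-fold with base 2. Both arrays of pair 2 lay above those of pairs 1 and 3. Of the 4 clones, feature 9833 was the strongest, at 0.54, 0.69, 0.38 and 0.32, with a mean of 0.48 ± 0.081. Feature 6606 was also above 0 throughout, at 0.02, 0.35, 0.18 and 0.12, with a mean of 0.15 ± 0.11. The other Igf1 clones crossed 0. Feature 15445 read -0.03, -0.16, 0.18 and 1.09, so that its mean of 0.21 ± 0.25 leaned on array 4. Feature 16310 read 0.23, 0.60, -0.06 and 0.22, with a mean of 0.19 ± 0.24.

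Dkk3, the Dickkopf glycoprotein, had the most even gene values. They were 0.55, 0.42, 0.47 and 0.50 on arrays 1 to 4, with a mean of 0.49 ± 0.047 (SD, n = 3 pairs), or 1.41-fold with base 2. No clone was that even. Feature 4945 read 0.24, 0.85, 0.30 and 0.66, with a mean of 0.43 ± 0.28, and was higher in pair 2 than in pairs 1 and 3. Feature 5436 read 0.86, -0.0031, 0.65 and 0.35, with a mean of 0.56 ± 0.35, and was lowest in pair 2. These opposite courses cancelled in the gene mean, so its SD understates the spread of either clone. The 2 clone means differed by 0.13, close to the median of 0.13 over genes with 2 or more clones, and by 0.0016 with arrays 1 and 2 turned.

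Fstl1, the follistatin-related glycoprotein, rested on 1 of its 2 clones. The gene values were 0.34, 0.58, 0.35 and 0.59 on arrays 1 to 4, with a mean of 0.43 ± 0.14 (SD, n = 3 pairs), or 1.35-fold with base 2. Feature 7143 read 0.65, 1.18, 0.62 and 1.13, with a mean of 0.81 ± 0.30. It was well above 0 on each array, and both arrays of pair 2 were the highest. Feature 11434 read 0.03, -0.02, 0.08 and 0.06, with a mean of 0.046 ± 0.033, and was near 0 on each array. The clone means differed by 0.76, more than in 99.0% of genes with several clones, and the gene mean describes neither. They differed by 0.050 with arrays 1 and 2 turned, more than in 13.6%.

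Nrep, the intracellular member, was measured by 1 clone, feature 16402. It read 0.50, 0.14, 0.59 and 0.77 on arrays 1 to 4, with a mean of 0.51 ± 0.068 (SD, n = 3 pairs), or 1.43-fold with base 2. All arrays were above 0. The 2 arrays of pair 2 were its lowest and its highest value, 0.63 apart on the same mice, and only their mean of 0.46 lay near pair 1 at 0.50 and pair 3 at 0.59. The SD over pairs does not hold that gap. Its mean was 0.41 with pair 2 from array 2 alone and 0.62 from array 4 alone.

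The order of the gene means was Bmp4, Nrep, Dkk3, Fstl1 and Igf1. The first 4 did not differ beyond their spread between neighbours. Bmp4 lay above Nrep by 0.051 ± 0.10 (SD, n = 3 pairs), Nrep above Dkk3 by 0.020 ± 0.087, and Dkk3 above Fstl1 by 0.067 ± 0.17. Fstl1 lay above Igf1 by 0.17 ± 0.017, in 3 of 3 pairs, but that SD leaves out the spread of clones. The order depends on Fstl1 feature 7143, since the flat feature 11434 had a mean of 0.046, below each Igf1 clone (0.15 to 0.48). With arrays 1 and 2 turned, Fstl1 was at 0.0047 and Igf1 at 0.0042. Over all genes, 75 had a higher mean than Bmp4 and 434 a higher mean than Igf1. With arrays 1 and 2 turned those ranks were lost, with 3081 genes above Bmp4 and 3648 above Igf1.

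Arrays 2 and 4 measured the same mice with the dyes exchanged, and the gap between them depends on the direction read. As deposited, the median absolute difference over all named clones was 0.22, and 10% of clones differed by more than 0.80. Of the 11 member clones 8 differed by more than that median. The widest gaps were 1.24 for Igf1 feature 15445 and 1.02 for Bmp4 feature 1098. The narrowest was 0.050 for Fstl1 feature 7143, which read 1.18 and 1.13, and the next was 0.076 for the flat Fstl1 feature 11434.

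The order of the gaps changed with array 2 turned. Fstl1 feature 7143 then read -1.18 and 1.13, the widest gap of the 11 at 2.31, and Dkk3 feature 4945 followed at 1.51. Fstl1 feature 11434 had the narrowest gap at 0.044. The median over all named clones was 0.19, and 10% of clones differed by more than 0.71, as did 8 of the 11 member clones. Nothing is read from that count, since turning 1 of 2 values above 0 widens their gap and the members were chosen by their deposited values. The member clones with the widest gaps as deposited were still past that limit, at 0.93 for Igf1 feature 15445 and 0.91 for Bmp4 feature 1098.

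**Figure D2:**
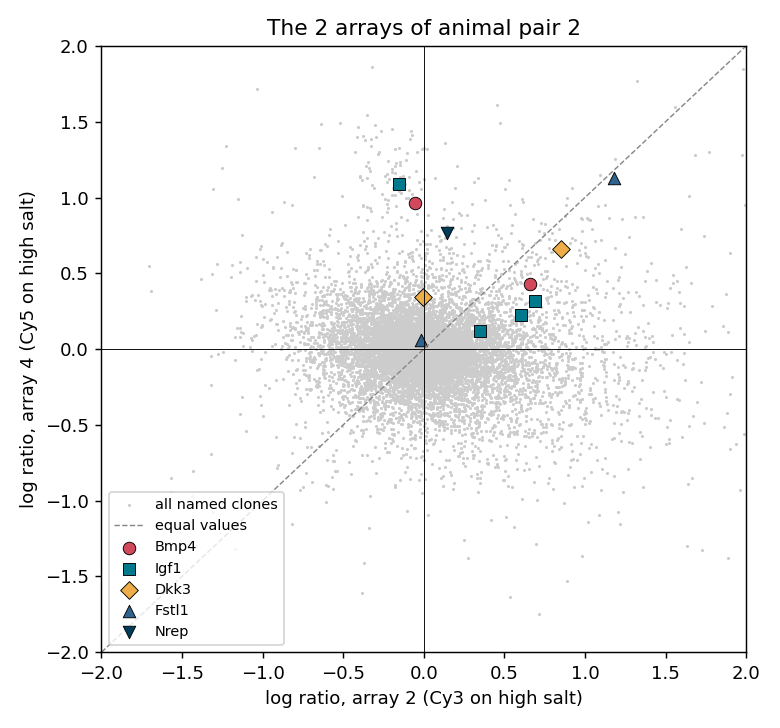
Log ratio on array 4 (vertical axis) against array 2 (horizontal axis), both of animal pair 2 with the dyes exchanged, as deposited, for all named clones (grey, 41 outside the axes) and the member clones. Fstl1 feature 7143 lies near the line of equal values at 1.18 and 1.13, while clones of Bmp4 and Igf1 lie near 0 on array 2 and near 1 on array 4.

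The means fell close to 0 under the other reading of the direction. With arrays 1 and 2 turned, Bmp4 stood at 0.027 ± 0.62 (SD, n = 3 pairs), Igf1 at 0.0042 ± 0.18, Dkk3 at -0.012 ± 0.51, Fstl1 at 0.0047 ± 0.35 and Nrep at 0.13 ± 0.56. Of the 11 clone means 5 were then above 0 and 6 below, from -0.18 to 0.28. Pair 1 was then below 0 and pair 3 above 0 for each of the 5 genes, with pair 2 between them. So a like sign on all 4 arrays holds in the deposited reading only. Under the turned reading 12.7% of all genes were above 0 on all 4 arrays and 18.7% below, and 0 of the 5 members were in either class. That 0, and the signs of pairs 1 and 3, follow from the deposited values. Turning arrays 1 and 2 of a gene above 0 on all 4 arrays must give mixed signs, which partly cancel in the turned mean. So nothing is read from that 0, from these signs, or from the fall of the members' means and ranks.

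**Figure D3:**
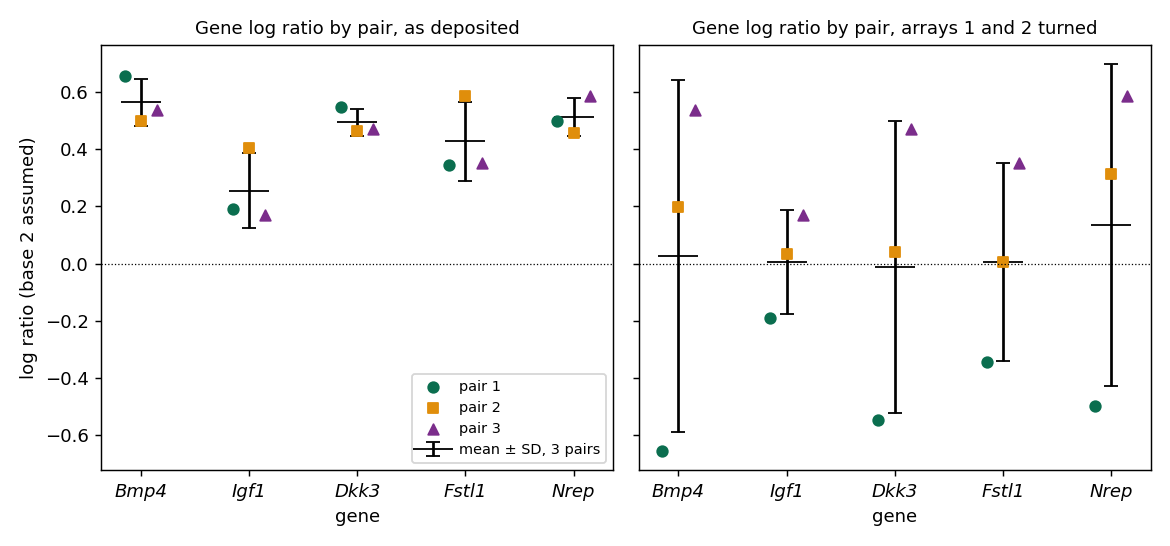
Gene log ratio (vertical axis, base 2 assumed) of the 5 genes in pairs 1 to 3, with mean ± SD, as deposited (left) and with arrays 1 and 2 turned (right). As deposited the means run from 0.26 to 0.56; turned, they run from -0.012 to 0.13, with pair 1 below 0 and pair 3 above 0.

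In the fit across all 8106 genes, limma called 0 genes at an adjusted p under 0.05, which is 0% of those tested, and the smallest adjusted p was 0.64. Before adjustment, p was under 0.05 for 228 genes with a positive mean (2.81%) and 213 with a negative one (2.63%). With arrays 1 and 2 turned, 0 genes were called as well and the smallest adjusted p was 0.081. The genes around the 5 members are set beside these shares. They come from lists of BMP, TGF-beta, WNT and IGF signalling and of the SPARC and follistatin-like family that leave the members out. The lists were chosen with earlier results of these data known, so their counts are a description.

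BMP signalling genes were spread around 0. Of 37 measured genes 0 were called by limma, 3 were above 0 and 2 below on all 4 arrays, and unadjusted p was under 0.05 for 3 higher and 0 lower genes. Their median log ratio was 0.020, against -0.00026 over all genes, and -0.027 with arrays 1 and 2 turned. Of the 7 other ligands measured, as deposited, 0 were above 0 on all 4 arrays and 2 below, against 7.01% and 7.75% of all genes. Nothing is read from counts this small. Bmp6, a related ligand, read -0.42, -0.31, -0.07 and -0.30, with a mean of -0.26 ± 0.18 (SD, n = 3 pairs) and 0.12 with arrays 1 and 2 turned. Bmp2, the closest relative of Bmp4, had the highest mean of these 7 at 0.12 ± 0.15, with 0.61 on array 4, and 0.15 turned. Bmp7 stood at -0.0015 ± 0.072, and -0.036 turned. Smad1, which carries the BMP signal to the nucleus, read 0.15, 0.07, 0.33 and 0.69, with a mean of 0.29 ± 0.12, or 0.16 with arrays 1 and 2 turned. Its feature 2197 read 0.04, -0.17, 0.25 and 0.95. Id2, a target that blocks basic helix-loop-helix factors, had a mean of 0.29 ± 0.078, or -0.13 turned. Id2 feature 13556 read -0.01 on array 4. None of 8 receptors had 1 sign on all 4 arrays, and nothing is read from this small count either. The type I receptor Bmpr1a stood at 0.047 ± 0.36, and 0.30 turned.

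Fstl3, a secreted binder of activins and BMPs, was the inhibitor with the largest ratio. It read 1.14, 1.03, 0.31 and 0.13, with a mean of 0.68 ± 0.42 (SD, n = 3 pairs), and -0.43 with arrays 1 and 2 turned. Both arrays with Cy3 on high salt were above 1 and both with Cy5 on high salt were below 0.4. Noggin (Nog), which sequesters BMP ligands, stood at 0.020 ± 0.055, and Grem1, another such antagonist, at 0.069 ± 0.22. Turned, they were -0.073 and 0.14.

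TGF-beta signalling, the pathway tied to Nrep, had 26 measured genes. Limma called 0 of them, 3 were above 0 and 0 below on all 4 arrays, and unadjusted p was under 0.05 for 2 higher and 0 lower genes. Of all genes 7.01% were above and 7.75% below 0 on all 4 arrays, and nothing is read from these counts. The median was 0.089, and -0.084 with arrays 1 and 2 turned. It was 0.021 without pair 1, 0.0044 without pair 2 and 0.18 without pair 3. Bgn, the proteoglycan biglycan that binds TGF-beta, read 2.68, 1.09, 0.69 and 1.15, with a mean of 1.50 ± 1.05 (SD, n = 3 pairs), and -0.65 turned. Furin, a protease that matures TGF-beta and BMP precursors, stood at 0.22 ± 0.18, and the ligand Tgfb3 at 0.16 ± 0.048. Both changed sign when turned, to -0.024 and -0.061. The Furin clones both crossed 0, with means of 0.19 and 0.26. Tgfb1, the main ligand in fibrosis, read 0.62, 0.46, -0.62 and 0.22, so its arrays did not share a sign, and its mean was 0.11 as deposited and -0.45 turned.

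WNT signalling genes had 54 measured members, of which limma called 0. On all 4 arrays 3 were above and 3 below 0, against 7.01% and 7.75% of all genes, and unadjusted p was under 0.05 for 1 higher and 1 lower gene. Nothing is read from these counts. The median was 0.062, and 0.065 with arrays 1 and 2 turned. Ccnd1, the cell cycle regulator cyclin D1, read 0.22, 0.18, 0.52 and 0.68, with a mean of 0.39 ± 0.16 (SD, n = 3 pairs). Myc, a growth-promoting transcription factor, went the other way at -0.42 ± 0.28. The turned means were 0.18 for Ccnd1 and 0.088 for Myc. By clone, Ccnd1 feature 6613 read -0.03, -0.19, 0.35 and 1.02, and Myc feature 8008 had a mean of -0.020. Among intracellular WNT inhibitors Nkd2 stood at 0.14 ± 0.12 and Apc at 0.13 ± 0.061, and turned at -0.13 and -0.013. Every Apc clone crossed 0, such as feature 9628 at 0.66, 0.89, -0.56 and 0.24, so the shared sign came from averaging. Nkd2 feature 10442 read -0.11 on array 3. Of the Dkk3 relatives, Dkk2 had a mean of -0.077 ± 0.038, and 0.021 turned, where Dkk3 itself was at -0.012. Dkk1 read -3.53 on array 1 but -0.15, -0.17 and 0.06 on arrays 2 to 4, and its mean was -1.25 ± 1.98, or 1.16 turned.

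IGF signalling genes were spread around 0. Of 38 measured genes limma called 0, 5 were above and 4 below 0 on all 4 arrays, and unadjusted p was under 0.05 for 2 higher and 3 lower genes. The median was -0.011, and -0.021 with arrays 1 and 2 turned. Igf2, the sister ligand of Igf1, lay below 0 throughout at -0.13, -0.10, -0.25 and -0.24, with a mean of -0.18 ± 0.062 (SD, n = 3 pairs), and -0.063 turned. The receptor Igf1r stood at 0.0036 ± 0.11, and 0.047 turned. Igfbp5, a secreted carrier of IGFs, read 0.01, 0.34, 0.35 and 0.37, with a mean of 0.24 ± 0.20, and 0.12 turned. Of the 7 measured genes listed with the binding proteins it alone had 1 sign on all 4 arrays. That group also held Igf2bp1, Igf2bp3 and Pappa, which are not carriers of IGFs. Over all genes 7.01% were above and 7.75% below 0 on all 4 arrays, so nothing is read from this count.

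Signalling genes downstream of the IGF receptor gave mixed signs. Pik3r1, a regulatory subunit of PI3K, read 0.38, 0.63, 0.48 and 0.22, with a mean of 0.43 ± 0.046 (SD, n = 3 pairs), and -0.038 with arrays 1 and 2 turned. Its clone means were 0.20, 0.84 and 0.24, and feature 4073 read -0.09 on array 4. Irs1, the adaptor between receptor and PI3K, read -0.27, -0.33, -0.17 and -0.14, with a mean of -0.22 ± 0.050, and 0.063 turned. Its 2 clones differed, at -0.08 ± 0.30 and -0.36 ± 0.39, and each crossed 0. Foxo3, a transcription factor that AKT restrains, stood at 0.51 ± 0.43, with 0.02 and 0.11 on the arrays of pair 2, and 0.15 turned.

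The SPARC and follistatin-like family of Fstl1 was small, with 7 measured genes. Limma called 0, 3 were above 0 and 0 below on all 4 arrays, and the same counts held at an unadjusted p under 0.05. The shares over all genes were 7.01% and 7.75% by sign and 2.81% and 2.63% by unadjusted limma p. Nothing is read from counts this small in a list chosen with results of these data known. The median was 0.38, and -0.21 with arrays 1 and 2 turned. It was 0.14 without pair 1. Sparc, a collagen-binding matricellular protein, read 1.44, 1.16, 0.72 and 0.95, with a mean of 1.07 ± 0.36 (SD, n = 3 pairs) and -0.28 turned. Sparcl1, its close relative, stood at 0.38 ± 0.17, and 0.0073 turned. Fstl3, which is also in the BMP list, was the other one with gene values above 0 throughout, although its feature 15528 read -0.12 on array 4.

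**Figure D4:**
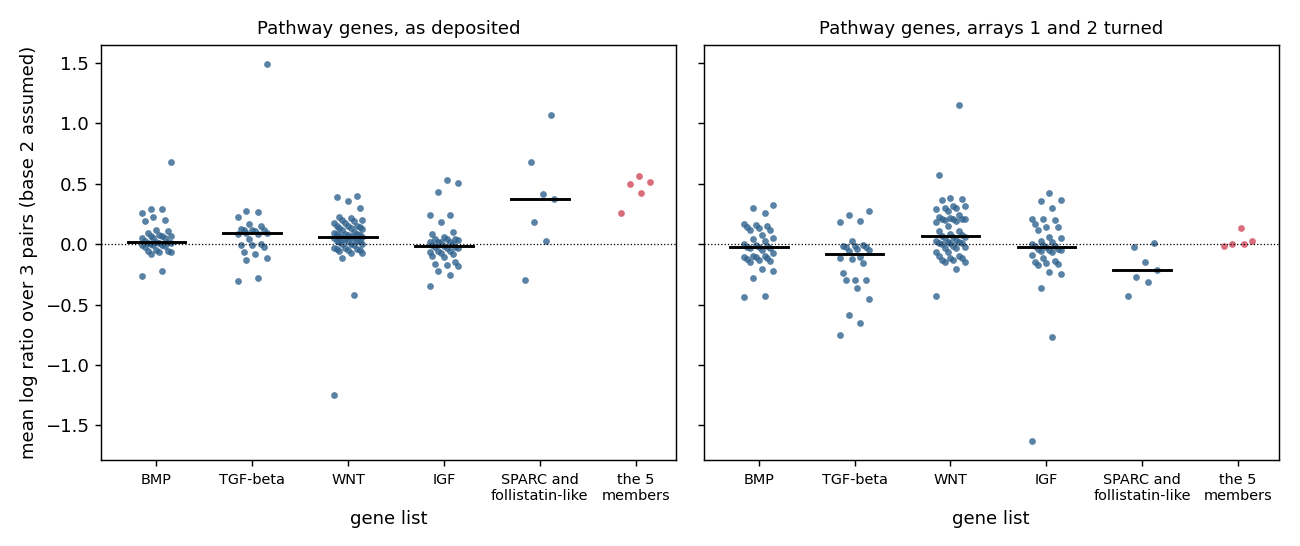
Mean log ratio over 3 pairs (vertical axis, base 2 assumed) of each measured gene of 5 lists, with the list median as a bar, and of the 5 members, as deposited (left) and with arrays 1 and 2 turned (right). The SPARC and follistatin-like median is 0.38 as deposited and -0.21 turned, and the other list medians lie between -0.084 and 0.089.

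Genes with array values closest to each member were found by the root mean square difference over the 4 arrays, as a description. This measure is the same in both readings, since both genes turn together. Closest to Bmp4 were Golim4 at 0.054, Uchl1 at 0.11 and Nrep at 0.12. Closest to Nrep were Fn1, the matrix protein fibronectin, at 0.11, Bmp4 at 0.12 and Golim4 at 0.13. Closest to Dkk3 were Uchl1, a ubiquitin hydrolase, at 0.078, Gcnt2 at 0.095 and Golim4 at 0.12. Golim4 was listed for all 3 of these members. Fstl1 lay closest to Ms4a6d at 0.095, Fhl1, a LIM protein of the sarcomere, at 0.10 and Lpar1, a lysophosphatidic acid receptor, at 0.11. Igf1 lay closest to Errfi1 at 0.052, Far1 at 0.065 and Calm2, a calmodulin gene, at 0.067. The arrays share mice and dyes, so nearness does not separate those sources.

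Fibroblast markers leaned the same way as the members in the deposited reading, and by the median of their means smooth muscle markers did so to a like degree. Of 10 measured fibroblast markers Col3a1, Col1a2, Vim and Lum were above 0 on all 4 arrays and Pdpn and Tcf21 below. Over all genes 7.01% were above and 7.75% below. The rest had mixed signs, with Col1a1 at -0.02, -0.66, 0.23 and 0.58. The fibroblast median ran from 0.13 to 0.31 over the arrays, with a mean-based median of 0.12, and -0.045 with arrays 1 and 2 turned. The mean-based median was 0.13 for smooth muscle and 0.065 for endothelial markers, and -0.16 and -0.057 turned. It was -0.082 for epicardial and -0.063 for adipocyte markers as deposited. The part of these cell types in the members' ratios was not tested. The medians of the other marker lists crossed 0 between arrays, except that the 1 atrial marker ran from 0.02 to 0.36. They ran from -0.05 to 0.19 for 6 endothelial, from -0.10 to 0.14 for 5 smooth muscle and from -0.12 to 0.18 for 4 leukocyte markers. For 5 epicardial markers they ran from -0.32 to 0.14. The array medians of the 3 cardiomyocyte, 7 adipocyte and 1 blood markers lay between -0.11 and 0.29. Single markers went further, such as Retn at -0.72 on array 1 and Adipoq at 0.83 on array 3.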

How the data were processed

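The authors deposited 1 log ratio of the 2 dyes per feature and array, taken here as log2. Base, direction, background correction and normalization: not given in the sources used here. Array medians ran from -0.0062 to 0.01, so the values were centred. Of 17664 features 17207 had a value on all 4 arrays. Names came from the platform annotation: 12563 features had 1 symbol, 412 several and 4689 none. All 11 member clones kept their symbol in RefSeq (GRCm38.p6).

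Clones of a symbol were averaged, and limma 3.58.1 (R 4.3.3) compared the 3 pair values with 0 (intercept fit, eBayes, Benjamini-Hochberg at 0.05), tested on simulated data. The mean over pairs balances the dyes. Mice were separate animals. The members and lists were chosen with earlier results of these data known. Text genes were the members, the 3 nearest genes per member and up to 4 genes per list. Those list genes had the largest absolute mean among genes of 1 sign on all arrays. Other list genes were added after their values were seen. They were Bmp2, Bmp7, Bmpr1a, Nog, Grem1, Tgfb1, Dkk1, Dkk2, Igf1r, Igf2, Wnt2, Wnt2b, Wnt7a, Wnt8a, Wnt16 and Rspo2. Alternatives turned arrays 1 and 2, took pair 2 from 1 array, scaled or centred arrays, took clone medians, added a dye covariate or left out each pair.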

Additional observations from a re-analysis of the deposited data

Results flagged for a closer look

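A single far value was looked for in 33 sets of 4 array values. These were 11 clones and 5 gene means of the members, and the up to 4 genes per list of 1 sign on all arrays. Of these, 1 was marked: Igfbp5 on array 1, at 0.012 against 0.34 to 0.37 on the other arrays. Genes added to the text later were not examined, among them Dkk1, which read -3.53 on array 1 and -0.15, -0.17 and 0.06 on the others. About 1 set in 20 is marked by chance, and arrays 2 and 4 share their mice.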

How the results depend on the processing

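The members kept their sign under each of the 8 alternatives that keep the deposited direction, at 0.50 to 0.63 for Bmp4, 0.18 to 0.30 for Igf1, 0.47 to 0.51 for Dkk3, 0.35 to 0.47 for Fstl1 and 0.41 to 0.62 for Nrep. With arrays 1 and 2 turned they were 0.027, 0.0042, -0.012, 0.0047 and 0.13. Nrep moved by more than its SD, to 0.41 or 0.62, with pair 2 from array 2 or array 4 alone. Limma called 0 genes under each alternative. Genes at an unadjusted p under 0.05 were 565 higher and 1118 lower when turned; leaving out 1 pair gave 74 (without pair 2) to 511 (without pair 3) higher and 71 to 340 lower. Genes above 0 on all arrays used were 1026 when turned, 915 with pair 2 from array 2 and 963 from array 4, and 875 to 1616 without 1 pair; those below 0 were 1513, 984, 995 and 1043 to 1586, and fewer arrays had to agree where arrays were left out. The BMP median was -0.027 when turned. The SPARC and follistatin-like median was -0.21 when turned, 0.45 and 0.30 with pair 2 from array 2 or 4, and 0.14 (without pair 1) to 0.35 (without pair 3). The WNT median was -0.013 with pair 2 from array 2 and 0.12 from array 4. The IGF median turned to 0.011 with pair 2 from array 2 and 0.0041 without pair 3. The cause of these shifts was not tested. Treating the 4 arrays as separate with the pair as a block could not be fitted, since limma's correlation estimate gave a value for 0 genes. Signal over background was not in the values used, so weak clones could not be set apart.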

Other observations

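Member clones differed in how common their array course was, counted after the values were seen. Fstl1 feature 7143 had 1 other named clone within a root mean square difference of 0.2 over the 4 arrays, Dkk3 feature 5436 had 4 and Bmp4 feature 10577 had 6. The flat Fstl1 feature 11434 had 5803, or 46.5% of the other named clones, and Igf1 feature 6606 had 2035. Bmp4 feature 1098 had 33 and Igf1 feature 15445 had 67. Those last 2 clones were among 80 named clones above 0.9 on array 4 and within 0.4 of 0 on the other 3 arrays. The same count was 44 for array 1, 50 for array 2 and 12 for array 3.

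WNT ligand genes showed a course of this kind as a list, also seen after the fact. The median of the 19 measured genes of WNT ligands, R-spondins and their processing was -0.073, -0.19, 0.035 and 0.61 on arrays 1 to 4. With arrays 1 and 2 turned, 8 of the 19 were above 0 on all 4 arrays and 2 below, against 12.7% and 18.7% of all genes. As deposited 0 were above and 0 below, against 7.01% and 7.75%. Wnt7a read -0.16, -0.35, 0.21 and 1.13, and Wnt2b read -0.25, -0.32, 0.38 and 1.86. Not all of the list took this course. Wnt2, Wnt8a, Wnt16 and Rspo2 were below 0 on array 4, at -0.10, -0.13, -0.04 and -0.06. Arrays 2 and 4 held the same mice, and the source of the difference was not tested.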
